A study of Mus musculus with 4 samples.

Results

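The cells described here were hypertrophic chondrocytes of the mouse fracture callus, taken as the callus barcodes in which Col10a1 made up at least 0.5% of all UMIs. A UMI, or unique molecular identifier, marks 1 captured RNA molecule, and a barcode stands for 1 droplet that should hold 1 cell. Members were chosen by their Col10a1 share among barcodes with at least 500 UMIs, at least 200 detected genes and at most 10% mitochondrial UMIs. The rule found 1623 members among 7133 such barcodes of the control callus and 2690 among 7318 of the callus after glucocorticoid (GC) treatment, in all 4313 of 23216 barcodes of the series. In trabecular bone it found none: 0 of 3977 control barcodes, which allows a share of up to 0.0754%, and 0 of 4788 GC barcodes, which allows up to 0.0627%.

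The study asked how excess GC alters bone turnover and fracture repair, and profiled callus and trabecular bone cells by droplet-based single-cell RNA-Seq, with 1 library for each tissue and treatment. Per the labels the mice were male C57BL/6J, 20 weeks old, and tissue was taken at week 2. The labels also give a slow-release prednisolone pellet at 6.25 mg/kg/d (GC) or a placebo pellet (control) under the skin. The study reports daily injection for the fracture model, so the route of the callus samples is uncertain here. Both callus groups carried a fracture, and how many mice went into each library is not given in the sources used here. With 1 library a condition, no difference between control and GC callus could be tested, library and treatment cannot be told apart, and every interval covers counting error only.

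Fracture callus bridges a break by endochondral ossification: chondrocytes first lay down cartilage rich in type II collagen and aggrecan, then leave the cell cycle, enlarge, and switch to type X collagen. Hypertrophic chondrocytes calcify their matrix, draw in vessels and osteoclasts, and are replaced by bone; some of them die and some take on osteoblast genes. Before hypertrophy, Indian hedgehog (Ihh) and parathyroid hormone-related protein form a loop that sets how fast chondrocytes mature, with Pth1r as the receptor. At the end of the process the cells make the mineral-binding proteins Ibsp (bone sialoprotein) and Spp1 (osteopontin) and the collagenase Mmp13.

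The 6 genes given as marks of these cells lie on 4 chromosomes of GRCm38 (mm10; GENCODE M21). Col10a1, which encodes the only chain of type X collagen, is at chr10:34389981-34397085. Ihh is at chr1:74945315-74951672 on the minus strand, and Pth1r at chr9:110722085-110747145, also on the minus strand. Ibsp (chr5:104299171-104311469) and Spp1 (chr5:104435118-104441050) lie in the same cluster of mineral-binding phosphoproteins, and Mmp13 is at chr9:7272514-7283331. Promoters of the gene that chose the members and of 2 late genes are shown from RefSeq (GRCm38.p6) as the 250 bases before the transcription start, 5′ to 3′ along the gene. Capitals mark the core of the RUNX motif (TGTGGT on either strand, so also ACCACA) and the AP-1 motif (TGANTCA on either strand), which are bound by Runx2, a factor needed for chondrocyte hypertrophy, and by Fos and Jun proteins; no marked stretches overlap. RefSeq gives 2 starts for Spp1, of which only the upstream one is shown.
Col10a1, chr10:34389731-34389980, plus strand: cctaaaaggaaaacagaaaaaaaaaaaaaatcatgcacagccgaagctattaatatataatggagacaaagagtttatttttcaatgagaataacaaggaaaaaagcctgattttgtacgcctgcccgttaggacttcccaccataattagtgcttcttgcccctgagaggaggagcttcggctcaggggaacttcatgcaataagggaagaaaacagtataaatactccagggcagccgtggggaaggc
Mmp13, chr9:7272264-7272513, plus strand: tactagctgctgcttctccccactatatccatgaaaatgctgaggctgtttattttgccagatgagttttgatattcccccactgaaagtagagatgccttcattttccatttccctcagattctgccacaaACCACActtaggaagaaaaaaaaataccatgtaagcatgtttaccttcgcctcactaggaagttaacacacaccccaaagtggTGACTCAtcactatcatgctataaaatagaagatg
Spp1, chr5:104434861-104435110, plus strand: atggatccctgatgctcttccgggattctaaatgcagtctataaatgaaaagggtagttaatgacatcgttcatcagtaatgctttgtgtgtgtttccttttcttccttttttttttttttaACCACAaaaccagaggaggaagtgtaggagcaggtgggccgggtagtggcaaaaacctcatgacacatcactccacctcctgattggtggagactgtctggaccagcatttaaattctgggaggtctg
The Mmp13 window held 1 RUNX core, beginning 118 bases before the start, and 1 AP-1 match, beginning 35 bases before it. The Spp1 window held 1 RUNX core at 128 bases, and the Col10a1 window held neither. Neither motif was found in the windows of Ihh, Pth1r (3 starts) and Ibsp, or in that of the second Spp1 start. Of 32817 promoter windows of this length, 14.0% held the RUNX core and 6.75% the AP-1 motif, and a match is a description of the letters only.

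Members made up 22.8% of control callus barcodes (95% exact binomial interval 21.8% to 23.7%) and 36.8% of GC callus barcodes (35.7% to 37.9%). Members of the 2 libraries differed in depth. Control members had a median of 23807 UMIs and 4177 genes, and GC members a median of 7088 UMIs and 2416.5 genes. Callus barcodes outside the rule had medians of 2814.5 UMIs in control and 2670.5 in GC. The plot of UMIs per member shows a single peak in control and a further peak of shallow barcodes in GC: 174 control members (10.7%) and 1162 GC members (43.2%) had under 5000 UMIs. Among barcodes with at least 5000 UMIs, members were 42.0% in control and 53.0% in GC. The 2 libraries shared 12 barcodes past the filters, of which 3 were control members and 2 were GC members, and no barcode was a member in both.

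**Figure D1:**
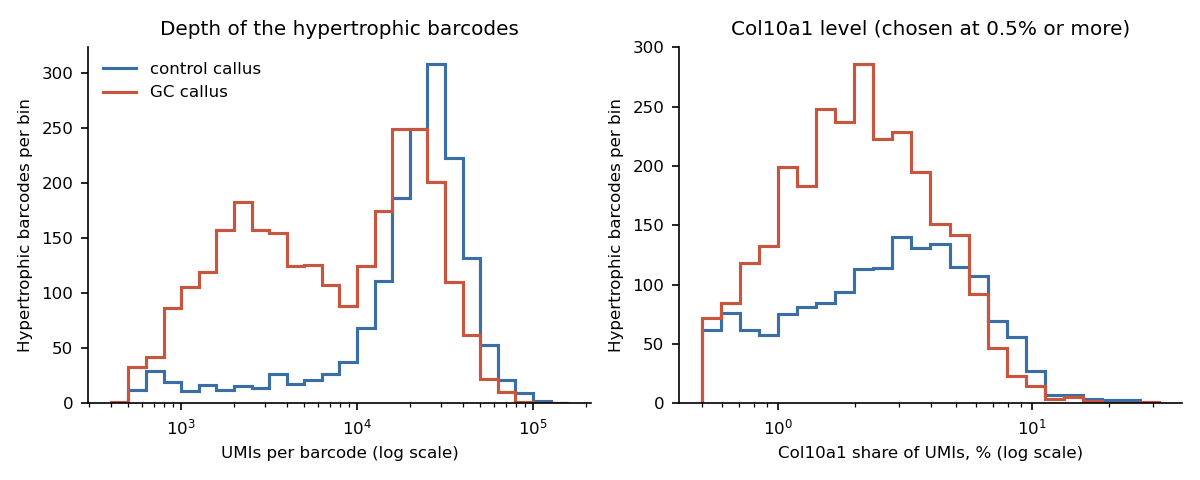
Hypertrophic barcodes of the control (blue) and GC (red) callus library counted by UMIs per barcode (left, log scale) and by Col10a1 share of UMIs in percent (right, log scale). Control members peaked above 10000 UMIs with a median of 23807, GC members had 2 peaks and a median of 7088, and Col10a1 shares had medians of 2.77% and 2.08%.

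RNA makeup varied with depth within the members of each library. Ribosomal protein genes gave 8.59% of the UMIs of GC members at 1000 to under 5000 UMIs and 17.0% at 20000 or more. In control members these shares were 12.7% and 15.8%. Col1a1, the main chain of bone collagen, stood at 12528 counts per 1000000 UMIs (CPM) in GC members of 1000 to under 5000 UMIs and at 5333 CPM in those of 20000 or more. Serpinh1, the collagen chaperone, was at 3518 CPM in GC members under 5000 UMIs and 1273 CPM in deeper ones, and Mmp9, a gelatinase of osteoclasts and late cartilage, at 128 and 20.1 CPM. In control these genes differed less with depth (Serpinh1 1192 and 1146 CPM, Mmp9 31.6 and 24.05 CPM), but Mmp13 differed more. It was at 4124 CPM in control members of 1000 to under 5000 UMIs and 1126 CPM in those of 20000 or more, against 1043 and 547 CPM in GC. The neutrophil gene S100a8 was higher in shallow members of both libraries, at 1141 and 96.3 CPM in control and 618 and 47.9 CPM in GC. Of the members, 1449 in control and 1528 in GC had at least 5000 UMIs.

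Free RNA sets a limit to the rule for shallow barcodes. Control callus barcodes of 20 to 100 UMIs, taken to hold RNA outside cells, had Col10a1 at 1.20% of their UMIs, above the chosen minimum. Col2a1 was at 2.25%. They had Mmp13 at 1068 CPM and Col1a1 at 3040 CPM, above GC members for Mmp13 (725 CPM) and control members for Col1a1 (2541 CPM). Ihh at 116 CPM and Pth1r at 585 CPM were near the levels of GC members (137 and 623 CPM). Ibsp at 4749.5 CPM and Spp1 at 6868 CPM were lower than in members of either library. B cell barcodes, which should lack Col10a1 and Col2a1, were those with at least 0.2% summed Cd79a, Cd79b and Ms4a1 and under 0.5% Col10a1. Their median Col10a1 share was 0.0850% in control (317 barcodes, median 1934 UMIs) and 0.0447% in GC (108 barcodes, median 1703 UMIs). Since their rule kept Col10a1 under 0.5%, these medians cannot show how often free RNA lifts a barcode past it. The part of free RNA in the members with fewest UMIs was not tested; the GC matrix lists no barcode under 500 UMIs. Within members the Col10a1 share had a median of 2.77% in control and 2.08% in GC, with quartiles of 1.38% and 4.67%, and of 1.26% and 3.36%. At the threshold, 41 barcodes lay just outside (0.45% to 0.5%) and 39 just inside (0.5% to 0.55%) in each library. Those just outside had Ibsp at 7745 CPM in control and 16256 CPM in GC, and those just inside at 10954 and 19863 CPM. Spp1 had the opposite order, at 10729 and 10049 CPM just outside and 7568 and 8279 CPM just inside. Ihh and Mmp13 were lower just outside in control (74.0 against 115 CPM and 359 against 1147 CPM) and higher just outside in GC (129 against 109 CPM and 1250.5 against 1097 CPM).

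The label was checked against markers of chondrocytes and osteoblasts. Chondrocyte genes were abundant in the summed members of both libraries: Col2a1 at 48777 CPM in control and 33951 CPM in GC, aggrecan (Acan) at 6915 and 6935 CPM, and Sox9, the master factor of cartilage, at 1250 and 1278 CPM. The osteoblast and osteocyte list was led by Col1a1, at 2541 CPM in control and 6426 CPM in GC members, against 58071 and 62983 CPM in Col1a1-high callus barcodes (at least 1% Col1a1, under 1% Col2a1; 165 and 205 barcodes), which its level chose. Alpl, the phosphatase needed for mineral in both lineages, was at 1376 and 1466 CPM in members and at 1034 and 1327 CPM in Col1a1-high barcodes. Bglap (osteocalcin) was at 39.7 CPM in control and 18.05 CPM in GC members, against 621 and 329.5 CPM in Col1a1-high barcodes. In members Ifitm5 was at 2.97 and 5.80 CPM, and Sost, made by osteocytes, under 1 CPM in both. The mineral genes Dmp1 and Phex stood above Bglap. Across bands of Col10a1 level, Dmp1 was at 45.2 to 125 CPM in control and 86.8 to 105 CPM in GC. Phex was at 148 to 208 CPM and 134 to 221 CPM. The whole list summed to 2835 and 6713 CPM.

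Of the 5 markers other than Col10a1, Ibsp and Spp1 were the most abundant and Ihh the least. Ibsp had 15074 CPM in control members and 21422 CPM in GC members. Col2a1-high callus barcodes (at least 1% Col2a1 and under 0.5% Col10a1; 1214 control, 646 GC), the cartilage cells outside the rule, had 5720.5 and 13751 CPM of it. Spp1 was at 12549.7 and 11433 CPM in members and at 3936 and 4731 CPM in Col2a1-high barcodes. Both genes were also high in Col1a1-high barcodes, Ibsp at 20090.1 and 26684 CPM and Spp1 at 8890.0 and 8054 CPM. Pth1r stood at 959.9 CPM in control members and 623 CPM in GC members, and it was at 644 and 739 CPM in Col2a1-high barcodes, so its order reversed between the libraries. Ihh was at 264 and 137 CPM in members, and at 40.8 and 68.3 CPM in Col2a1-high barcodes. Mmp13 was at 1413 and 725 CPM in members and at 285 and 193 CPM in Col2a1-high barcodes, while Col1a1-high barcodes had 1174 and 1225 CPM.

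**Figure D2:**
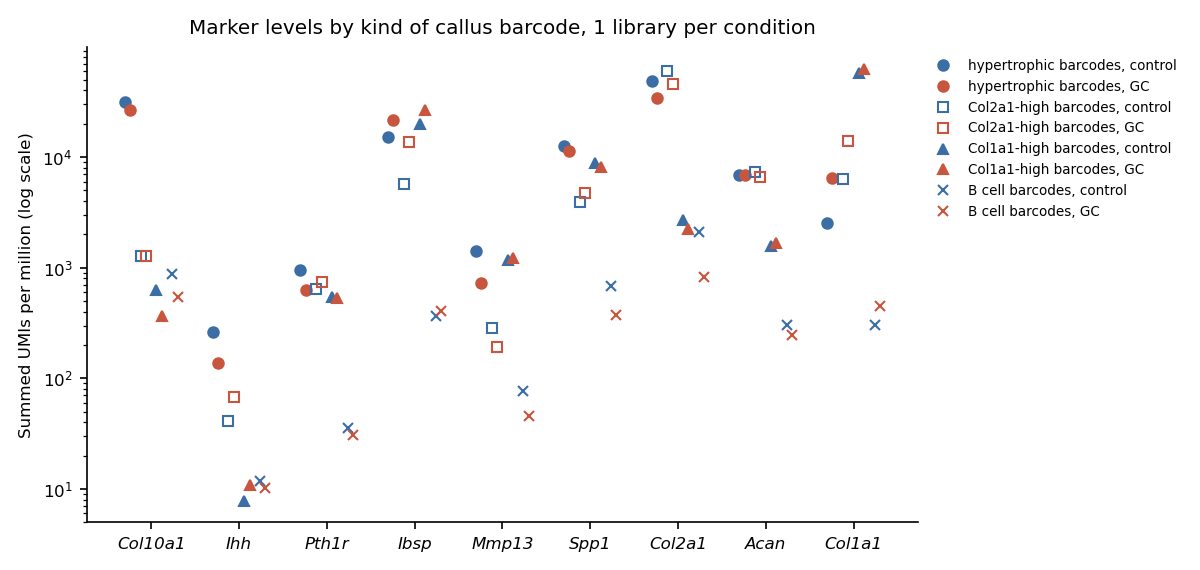
Summed CPM (UMIs per 1000000, log scale) of the 6 given markers and of Col2a1, Acan and Col1a1 in 4 kinds of callus barcode, for the control (blue) and GC (red) library, 1 point a library with no error bars since each is 1 library. Ihh was at 264 and 137 CPM in hypertrophic barcodes and near 10 in Col1a1-high and B cell barcodes, whereas Ibsp and Mmp13 were also high in Col1a1-high barcodes.

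To count expressing cells at equal depth, each barcode was thinned to 1000 UMIs, which left out 60 control and 163 GC members. An Ihh UMI was then seen in 18.4% of control members (exact interval 16.5% to 20.4%) and 9.93% of GC members (8.79% to 11.2%). In B cell barcodes, the background and chosen at under 0.5% Col10a1, the shares were 1.97% and 2.02%. For Pth1r the shares were 54.6% and 42.1%, with B cell barcodes at 4.28% and 1.01%. Mmp13 was seen in 32.2% and 34.4% of members against 7.57% and 4.04% of B cell barcodes. Ibsp was seen in 86.6% and 94.9% of members and Spp1 in 91.6% and 94.9%, and both had a high background, with Ibsp in 31.6% and 33.3% and Spp1 in 49.7% and 32.3% of B cell barcodes. Without thinning, Ihh was detected in 70.2% of control and 39.3% of GC members, at unequal depth.

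Against the Col2a1-high barcodes of the same library, members differed beyond their Col10a1. The contrast is the one the rule draws, so it is given as a description with no test. Of 12307 genes compared, 90 were at least 2-fold higher in members in both libraries (0.731%) and 119 at least 2-fold lower (0.967%). Col10a1 aside, among genes that reached 50 CPM, the highest ratio belonged to Aldh1a3, an enzyme that makes retinoic acid. Aldh1a3 was at 507 CPM in control members and 58.7 CPM in Col2a1-high barcodes, and at 322 and 63.6 CPM in the GC library. Rdh10, the retinol dehydrogenase that acts a step before it, was at 69.4 against 8.35 CPM in control and 71.0 against 18.1 CPM in GC. Epas1, the hypoxia factor HIF-2α, was at 73.3 against 9.99 CPM in control and 75.7 against 15.1 CPM in GC. Cds1, Pank1, Jam2, Gmpr, Ffar4 and Plaat3 completed the 10 highest with Mmp13. The 10 lowest under the same limit were C1qtnf3, H19, Ucma, Aspn, Chrdl2, Ptch1, Car8, Col12a1, Pcolce and Sfrp5. Ucma, secreted by resting chondrocytes, was at 90.8 against 594 CPM in control and 64.7 against 355 CPM in GC.

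Signals of the hedgehog loop were split between the groups. Ihh, the ligand, was 2.55 log2 units higher in control members than in Col2a1-high barcodes and 0.96 higher in GC. Ptch1, the hedgehog receptor and itself a target of the signal, was lower in members (70.9 against 398 CPM in control, 74.0 against 256 CPM in GC), as was Gli1, at 1.10 against 10.6 CPM and 1.30 against 5.24 CPM. Pthlh, the ligand of Pth1r, was under 7 CPM in members and Col2a1-high barcodes of both libraries. The FGF receptors crossed over: Fgfr1, the receptor of hypertrophic cells, was at 494 against 161 CPM in control and 511 against 237 CPM in GC, and Fgfr3, the receptor of proliferating and prehypertrophic cells, at 152 against 314 CPM and 116 against 313 CPM. Of the 12 genes compared in this list, 1 was at least 2-fold higher in members in both libraries and 3 at least 2-fold lower. The shares across all genes were 0.731% and 0.967%.

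Among ligands, members and Col2a1-high barcodes differed in both directions. Across all genes 0.731% were at least 2-fold higher in members in both libraries and 0.967% at least 2-fold lower. Of 21 BMP and TGF-β genes compared, 1 was at least 2-fold higher in members in both libraries and 2 at least 2-fold lower, with medians of -0.38 and -0.14 log2 units, and of 10 vessel and osteoclast signals 2 were higher and 1 lower, with medians of 0.29 and 0.65. Bmp2, an inducer of bone, was at 337 against 113 CPM in control and 589 against 236 CPM in GC, and Bmp6 at 162 against 59.2 CPM and 166 against 103 CPM. Tnfsf11 (RANKL), which drives osteoclast formation, was at 27.6 against 7.57 CPM in control and 27.1 against 7.10 CPM in GC, and its decoy receptor Tnfrsf11b (osteoprotegerin) at 205 against 119 CPM and 401 against 236 CPM. The chemokine Cxcl14 was at 136 against 47.5 CPM and 117 against 26.97 CPM. Thbs1, a thrombospondin that holds back vessel growth, was lower in members, at 512 against 1033 CPM and 549.8 against 1245 CPM. Vegfa, the vessel growth factor of hypertrophic cartilage, differed less, at 781 against 648 CPM in control and 753 against 516 CPM in GC. Among matrix proteases, Mmp13 and the cathepsin Ctsl were at least 2-fold higher in both libraries and Mmp2 at least 2-fold lower, of 13 compared.

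The cartilage matrix was partly lower. For comparison, 0.967% of all genes were at least 2-fold lower in members in both libraries and 0.731% at least 2-fold higher. All 6 cartilage collagens compared (Col2a1 took part in the rule for the reference and was left out) were lower in members in both libraries, with medians of -0.60 and -0.64 log2 units, and none by 2-fold. Of 16 proteoglycan and linker genes, 6 were at least 2-fold lower in both libraries and 1, Matn1 (matrilin-1, a cartilage linker), at least 2-fold higher at 205 against 71.4 CPM and 117 against 43.6 CPM. Acan stayed near the reference, and Snorc, a cartilage membrane proteoglycan, was 0.43 and 0.55 log2 units higher. The 28 genes of collagen folding and the unfolded protein response had medians of -0.67 and -0.63. The proliferation gene Mki67 was at 4.26 CPM in control and 4.47 CPM in GC members against 41.5 and 13.8 CPM in Col2a1-high barcodes, and the cell cycle inhibitor Cdkn1a stood at 2184 and 1858 CPM. Osterix (Sp7), a factor of both hypertrophic cells and osteoblasts, differed from Col2a1-high barcodes by -0.21 log2 units in control and -0.18 in GC, and Runx2 by 0.45 and 0.54.

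**Figure D3:**
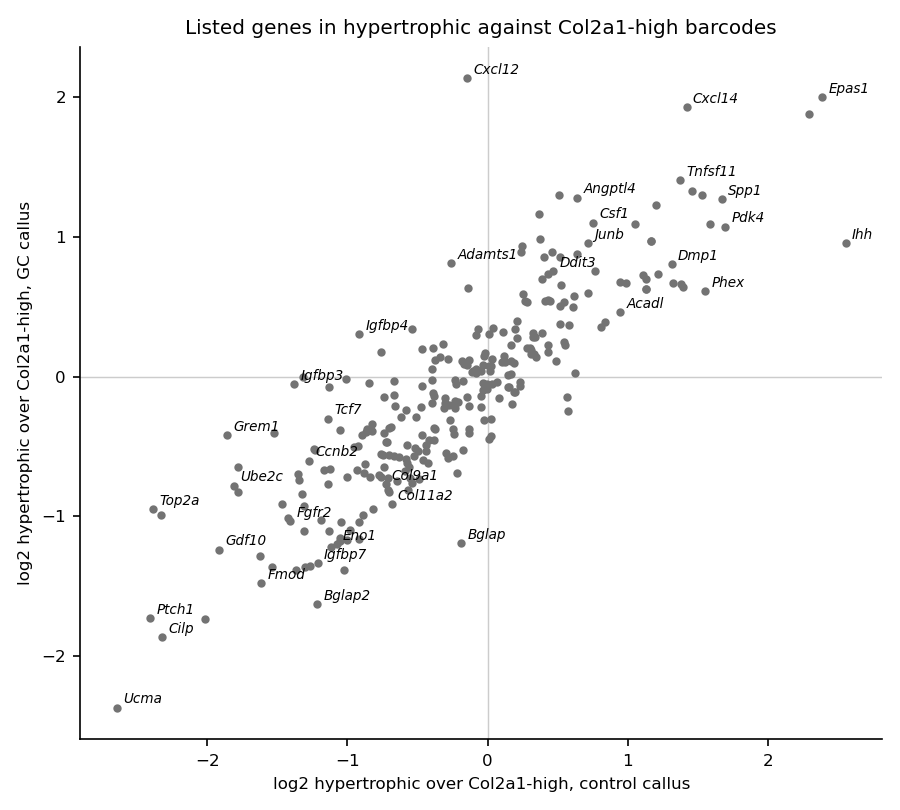
log2 ratio of hypertrophic over Col2a1-high barcodes for each listed gene with enough UMIs, control library on the x axis and GC library on the y axis; each point is 1 gene and some are named. Most genes lie on the same side of 0 in both libraries, with Ihh at 2.55 and 0.96, Epas1 at 2.39 and 2.00, and Cxcl12 apart at -0.15 in control and 2.14 in GC.

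Members were not uniform along their own Col10a1 level. They were set in bands of 0.5% to 1%, 1% to 2%, 2% to 5% and above 5% Col10a1 (258, 337, 672 and 356 control members, 411, 869, 1127 and 283 GC members), with Col10a1 taken out of each total. The band position is the rule's own measure, so these values carry no test. Of 263 listed genes compared between the highest and the lowest band, 14 were at least 2-fold lower and 0 at least 2-fold higher in both libraries. Over all 8625 genes compared the same way, 0.8% were at least 2-fold lower and 0.22% at least 2-fold higher. The listed genes that were lower were Ucma, Scrg1, Fmod and Matn3 of the cartilage matrix, Col1a1, Col3a1 and Col5a1 of fibrous matrix, Fgfr3, Sfrp5, Cdkn1c, Mmp2, Fkbp10, Hsp90b1 and Manf. Fmod (fibromodulin) went from 533 to 155 CPM in control and from 496 to 184 CPM in GC between these bands. Col1a1 went from 4024 to 1213 CPM in control and from 7602 to 3208 CPM in GC.

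Other genes were higher where Col10a1 was high. Ihh went through 158, 181, 296 and 432 CPM over the control bands and 114, 135, 146 and 179 CPM over the GC bands. Epas1 went from 49.2 to 135 CPM in control and from 59.2 to 104 CPM in GC, and Bmp2 from 257 to 518 CPM and from 495 to 801 CPM. Mgp, which holds back calcification, went from 3819 to 7625 CPM in control and from 3851 to 5963 CPM in GC. Steps were larger in GC for Acan (6431 to 7945 CPM in control, 5994 to 9646 CPM in GC) and Adamts1 (49.7 to 64.7 CPM, and 86.4 to 180.1 CPM). Pth1r stayed level in control (1039.8 CPM in the lowest band and 990.2 CPM in the highest) and went from 707 to 605 CPM in GC. Mmp13 was lower at the top in both libraries (1559 to 1239 CPM, and 914 to 486 CPM). Band members differed in depth, with median UMIs of 22750 in the lowest and 20446 in the highest control band, and of 7238 and 13858 in GC. At 5000 UMIs or more, 15 listed genes were at least 2-fold lower and 0 higher.

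Most Mmp13 UMIs sat in a minority of members, and members with an Mmp13 UMI after thinning differed in other genes. Without thinning, 1286 of 1623 control members and 1647 of 2690 GC members had an Mmp13 UMI. Over control members Mmp13 had a median of 98.6 CPM and a 90th percentile of 5467 CPM, and the 5% of members with most Mmp13 UMIs held 53.7% of them (62.2% in GC). At 1000 UMIs each, the 504 control members with an Mmp13 UMI had Mgp at 11427 CPM against 2536 CPM in the 1059 without, Spp1 at 22943 against 9058 CPM, and Htra1, a serine protease of matrix, at 383 against 112 CPM. They had less Hapln1, the link protein of aggrecan (1478 against 4505 CPM), less Matn3 (387 against 1303 CPM), less Cdkn1c, a cell cycle inhibitor of early hypertrophy (133 against 496 CPM), and less Col2a1 (27431 against 56704 CPM). In the GC library the 870 members with an Mmp13 UMI again had more Mgp (6720 against 3751 CPM), Htra1 (259 against 123 CPM) and Spp1 (15263 against 10244 CPM) and less Cdkn1c (109 against 313 CPM). Matn3 did not part them there (867 against 898 CPM), nor did Col9a1 (2770 against 2728 CPM; control 1093 against 3040 CPM). Members with an Mmp13 UMI had fewer UMIs before thinning, with medians of 20812 against 26239 in control and 4771 against 12885 in GC; the part of this in the differences was not tested.

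Mmp13 detection differed with Ibsp. Of control members with an Ibsp UMI, 28.2% had an Mmp13 UMI, against 58.4% of those without Ibsp. In GC these shares were 33.2% and 56.9%. The members without Ibsp were few (209 control, 130 GC), and in both libraries they had more Mgp (9785 against 4727 CPM in control, 12100 against 4376 CPM in GC) and less Col1a1 (727 against 2671 CPM, and 438 against 9320 CPM). Before thinning they had median UMIs of 19908 against 25062 in control and 16135 against 7744 in GC, where Col1a1 was lower in deeper members; the part of depth in these differences was not tested. Their Alpl was also lower, at 804 against 1485 CPM in control and 615 against 1401 CPM in GC. Thinned counts of different genes in the same 1000 UMIs compete for places, and these shares are a description.

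Members with Ihh were compared in the same way. At equal depth an Ihh UMI was seen in 22.5% of control members with a Pth1r UMI and in 13.5% of those without, and in 13.7% and 7.18% in GC. The 288 control members with an Ihh UMI had Pth1r at 1302 CPM against 904 CPM in the 1275 without, and Mef2c, a factor that turns on hypertrophy genes, at 712 against 424 CPM. Immediate early genes followed, with Fos at 1344 against 694 CPM, Egr1 at 2063 against 1237 CPM, and the BMP target Id3 at 205 against 92.5 CPM. In control Egr1 and Id3 were higher with an Mmp13 UMI as well, at 1865 against 1162 CPM and 198 against 72.7 CPM. The GC library gave the same order: Mef2c at 721 against 351 CPM, Fos at 1239 against 565 CPM, Egr1 at 2099.6 against 1088 CPM and Id3 at 231 against 119 CPM in 251 members with and 2276 without Ihh. Tnfrsf11b was lower in members with Ihh, at 79.9 against 252 CPM in control and 323 against 485 CPM in GC. So was Dmp1, a late mineral matrix protein (38.2 against 78.4 CPM, and 55.8 against 98.0 CPM). These levels rest on few UMIs, in control members with Ihh on 23 of Tnfrsf11b and 11 of Dmp1. Mmp13 was seen in 37.2% of control members with Ihh and 31.1% without, and in 36.3% and 34.2% in GC.

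**Figure D4:**
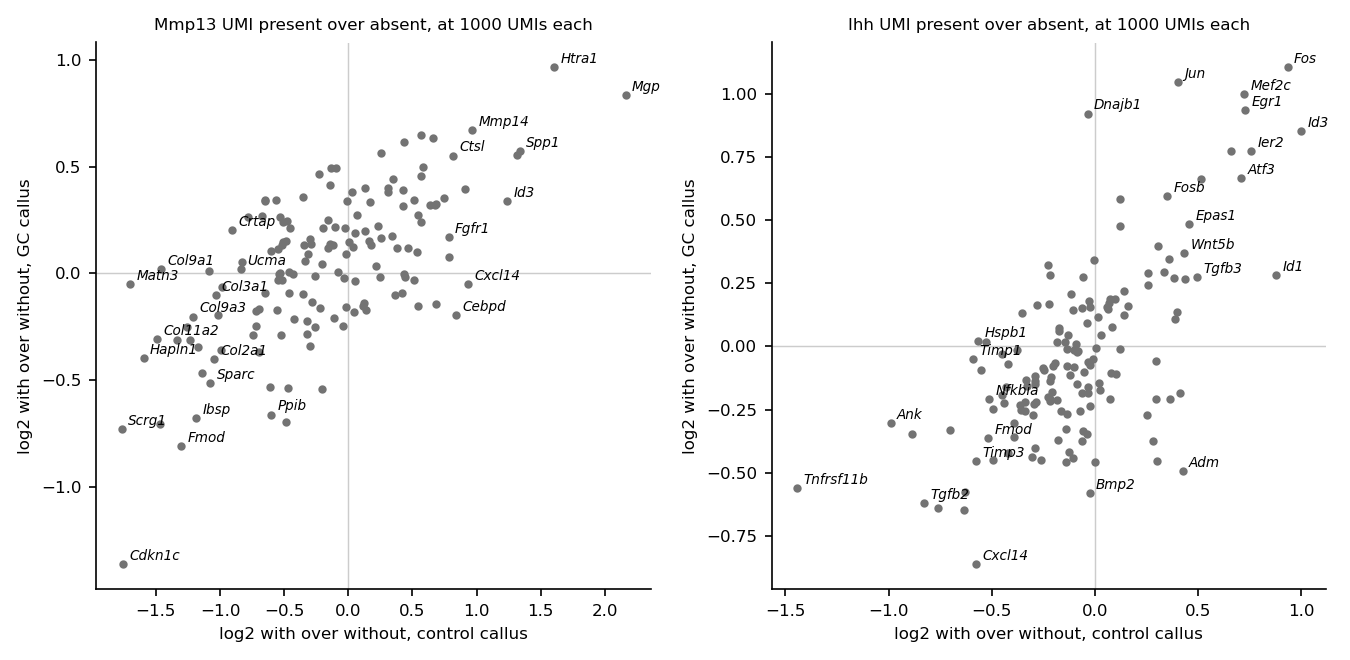
log2 ratio of listed genes (CPM after thinning, plus 20) in hypertrophic barcodes with over those without an Mmp13 UMI (left) or an Ihh UMI (right), control library on the x axis and GC library on the y axis, each barcode at 1000 UMIs. Mgp and Htra1 lie high with Mmp13 in both libraries and Cdkn1c and Fmod low; Fos, Egr1, Mef2c and Id3 lie high with Ihh and Tnfrsf11b low.

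Between the GC and control callus, most genes of the members were at like levels. Of 13223 genes compared (at least 50 UMIs in the 2 sums, log2 of CPM plus 5), 51 were at least 2-fold higher in GC members (0.386%) and 17 at least 2-fold lower (0.129%), and 57.8% were above 0, with a median of 0.04 log2 units. With members of at least 5000 UMIs only, 37 of 13073 were at least 2-fold higher (0.283%) and 19 at least 2-fold lower (0.145%). Counts were larger when each barcode counted equally, at 251 higher and 40 lower. After thinning to 1000 UMIs, 268 of 6711 genes were higher and 55 lower. With 1 library on each side these are sizes and not calls, and for some genes the same contrast in Col2a1-high or B cell barcodes is given too.

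The hypertrophy genes differed unequally. Ihh was lower in GC members, with a log2 ratio of -0.92 (fold 0.521, counting interval 0.503 to 0.539) and of -0.90 at 5000 UMIs or more, whereas in Col2a1-high barcodes the ratio was 0.68. Mmp13 was lower in both groups, at -0.96 in members (fold 0.513, 0.505 to 0.521) and -0.55 in Col2a1-high barcodes. Pth1r stood at -0.62. Ibsp was higher, at 0.51 (fold 1.42, 1.416 to 1.426) in members and 1.26 in Col2a1-high barcodes, and Spp1 was at -0.13. The order of Ibsp turned with depth: at 1000 to under 5000 UMIs Ibsp was at 12337 CPM in control and 11146 CPM in GC, and at 20000 or more at 15917 and 25830 CPM. With each barcode counted equally the ratio was 0.16. For Mmp13 the share of members with a UMI at equal depth was alike in both libraries (32.2% and 34.4%), and the gap lay in the upper tail: the 90th percentile over members was 5467 CPM in control and 2343 CPM in GC. For Ihh the share itself was lower in GC.

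Cartilage matrix genes were mostly lower in GC members, whereas 57.8% of all genes were higher. All 7 cartilage collagens were lower, with a median of -0.38 and none by 2-fold, against 0.04 for all genes, and Col9a2 was the lowest at 3021 against 1758 CPM. All 7 were lower in Col2a1-high barcodes too, with Col2a1 at -0.52 in members and -0.39 there. Of 16 proteoglycan and linker genes, 12 were lower (median -0.39), among them Hapln1 at 3886 and 2393 CPM and Matn1 at 205 and 117 CPM, and 4 higher or level, of which Chad (chondroadherin) was at 1371 and 1874 CPM. Epyc (epiphycan), the lowest and the 1 gene past 2-fold, was at 43.8 and 19.2 CPM, but its log2 ratio was 0.15 when each barcode counted equally. Acan was level at 6915 and 6935 CPM.

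Bone collagens were higher in GC members. Col1a1 was at 2541 CPM in control and 6426 CPM in GC (fold 2.53, 2.51 to 2.55). Its median over members was 757 CPM in control and 5849 CPM in GC, and at 5000 UMIs or more 753 and 2158 CPM, so shallow members carried part of the gap and 1.22 log2 units were left at 5000 UMIs or more. The matrix protein periostin (Postn) was at 114 and 247 CPM, Col5a1 at 185 and 323 CPM and Col1a2 at 6065 and 8703 CPM, with Col3a1 level at 974 and 992 CPM. Across all genes 57.8% were higher and 0.386% at least 2-fold higher, with a median of 0.04. Of the 10 genes compared in this list, 8 were higher and 2 at least 2-fold, with a median of 0.31. At 5000 UMIs or more 1 was at least 2-fold higher, with Postn at 0.95, and the median was 0.23. Col2a1-high barcodes showed Col1a1 at 6306 and 13830.4 CPM, a like ratio, and Bglap went the other way in members at 39.7 and 18.05 CPM. The stromal list, led by Dcn (decorin), had summed levels of 1889 and 2647 CPM in members.

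Signals to vessels, osteoclasts and osteoblasts differed gene by gene. Tnfrsf11b was at 205 CPM in control and 401 CPM in GC members (0.95 log2 units; 0.96 in Col2a1-high barcodes), with its target Tnfsf11 level at 27.6 and 27.1 CPM. Bmp2 was at 337 and 589 CPM (fold 1.75, 1.71 to 1.79). Vegfa was level at 781 and 753 CPM, and placental growth factor (Pgf) was at 17.2 and 6.20 CPM. Adamts1, a protease of the aggrecanase family, was at 50.5 and 120.2 CPM (1.17 log2 units; 0.10 in Col2a1-high barcodes). Among IGF genes, the binding proteins Igfbp5 (30.5 and 64.0 CPM) and Igfbp3 (1.77 and 8.62 CPM) were higher in GC, and Igfbp7 was lower at 861 and 534 CPM.

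Cxcl12, a chemokine of stroma and vessels, had the largest ratio of its list, at 2.19 CPM in control and 26.8 CPM in GC members. The UMIs sat in few members: 88 in 60 of 1623 control members and 885 in 256 of 2690 GC members, where 46 members with at least 5 UMIs held 561. Of these 46, 30 also had at least 3 UMIs of the 7 endothelial markers. Such endothelial UMIs were found in 10 control members (0.616%) and 83 GC members (3.09%), and without them Cxcl12 was at 1.89 and 11.3 CPM. Without the same members Adamts1 was at 49.9 and 116 CPM, Bmp2 at 338 and 583 CPM and Col1a1 at 2540.1 and 6058 CPM, near their full values.

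Known GC-responsive genes lay on both sides. Sgk1, the serum- and GC-regulated kinase, was at 642 CPM in control and 1302 CPM in GC members (fold 2.03, 1.996 to 2.06), Dusp1 at 268 and 501 CPM, Fkbp5 at 17.0 and 31.2 CPM, and the metallothioneins Mt1 and Mt2 at 818 and 1235 CPM and at 202 and 358 CPM. Tsc22d3 (GILZ) was at 122 and 134 CPM, Per1 at 53.6 and 44.6 CPM and Ddit4 at 44.7 and 20.3 CPM. Of 18 genes compared, 11 were higher in GC, near the share of all genes, and 1 was at least 2-fold higher, with a median of 0.11. At 5000 UMIs or more none was 2-fold higher, with Sgk1 at 0.96, and 1, Ddit4, was 2-fold lower. In Col2a1-high barcodes Sgk1 was at 0.70 and Dusp1 at 0.45, and in B cell barcodes, which held few UMIs of them, at -0.52 and -0.03. The receptor Nr3c1 was level at 70.6 and 75.4 CPM, and Hsd11b1, which regenerates active steroid, was under 1 CPM in members of both libraries.

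Most glycolysis genes were lower in GC members, whereas 57.8% of all genes were higher (median 0.04). Of 20 glycolysis genes 17 were lower in GC members (median -0.21), with the glucose transporter Slc2a1 at 478 and 311 CPM and Pfkfb3, which speeds glycolysis, at 98.5 and 49.7 CPM. In Col2a1-high barcodes Slc2a1 had a log2 ratio of -1.39. Of 10 hypoxia genes 6 were lower and 4 higher (median -0.13), and their summed level was alike at 2615 and 2638 CPM. Adm (adrenomedullin) was at 77.6 and 32.5 CPM and Egln3 at 13.1 and 4.38 CPM, while Hif1a was at 0.13, Epas1 at 0.04 and Bnip3 at 0.16. Of 18 fatty acid oxidation and uptake genes, 12 were lower and none differed by 2-fold (median -0.19). Of 28 collagen folding and unfolded protein genes, 16 were higher, near the share of 57.8% over all genes. Their median was 0.08, and -0.03 at 5000 UMIs or more, beside 0.04 and 0.02 for all genes. Xbp1 was the highest at 107 and 206 CPM, and Ppib the lowest at 1259 and 763 CPM. The 13 BCL2 family and caspase genes lay between -0.36 and 0.33 with a median of -0.03, and the 20 cell cycle genes had a median of 0.07, and of -0.07 at 5000 UMIs or more. The medians of the remaining lists were 0.16 for 13 matrix protease and inhibitor genes (-0.03 at 5000 UMIs or more), -0.04 for 10 vessel and osteoclast signals, 0.47 for 9 IGF genes, -0.05 for the hedgehog loop and FGF receptors, -0.11 for 19 skeletal transcription factors, 0.01 for 19 mineralization genes, 0.09 for 22 BMP and TGF-β genes, -0.01 for 15 Wnt genes and -0.20 for 14 immediate early and heat shock genes.

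**Figure D5:**
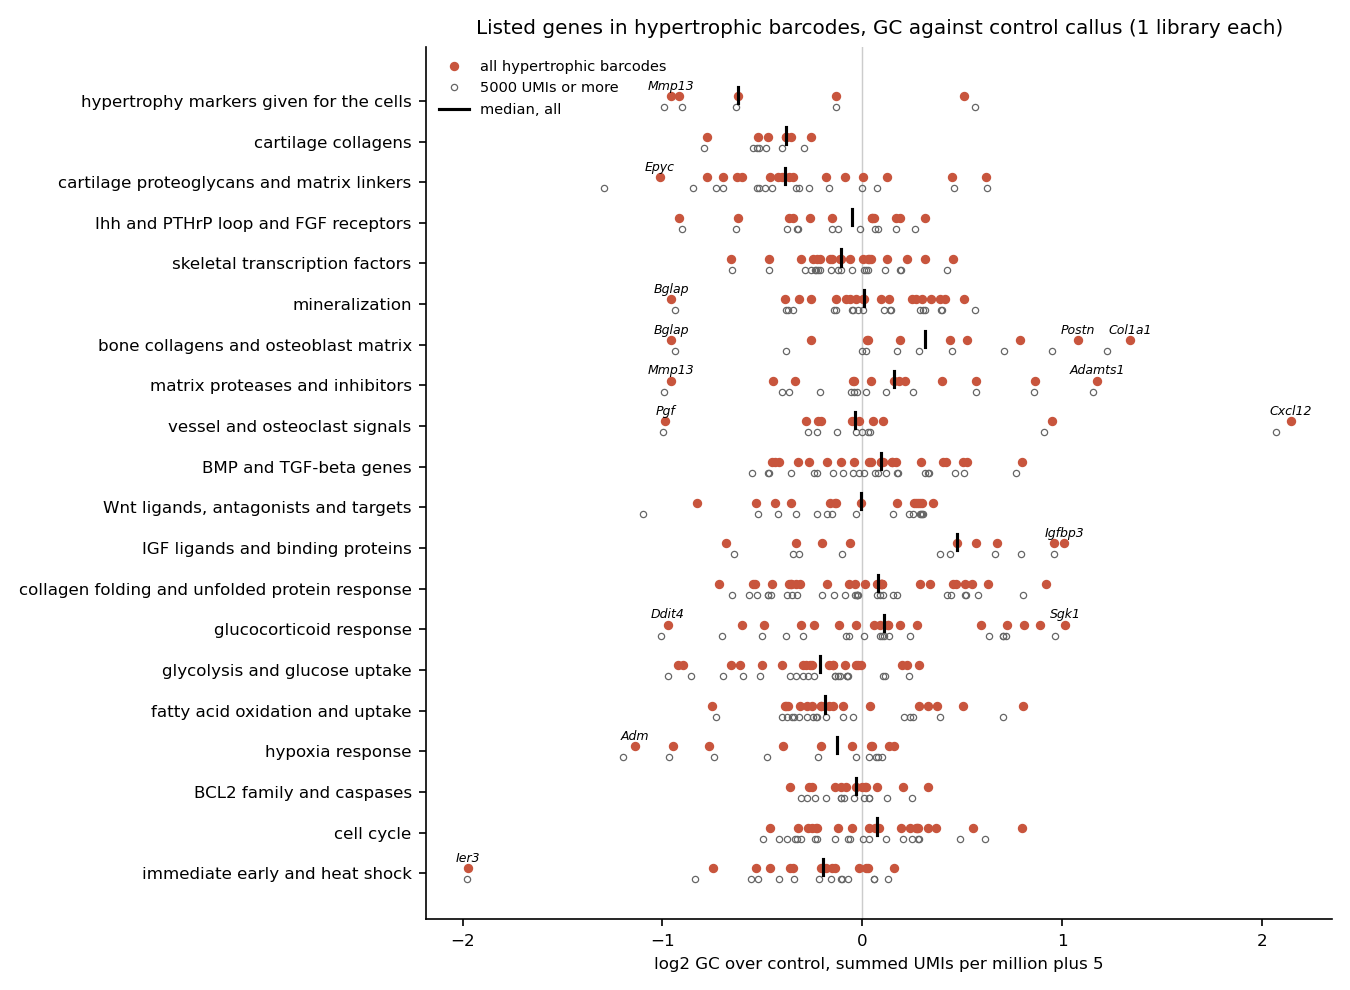
log2 ratio of GC over control in hypertrophic barcodes (CPM of summed UMIs, plus 5) for genes with enough UMIs in 20 lists, the marker lists of other cell types not drawn; red points use all members, open points members with at least 5000 UMIs, and black bars are medians of the red points. Cartilage collagens all lie below 0 (median -0.38), Col1a1 and Postn lie above 1, and Cxcl12 (2.14) and Ier3 (-1.97) are the farthest points drawn.

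Among genes that reached 50 CPM in either sum, the 10 with the lowest ratios in GC members were Depp1 (134 and 24.4 CPM), Ier3 (593 and 148 CPM), G0s2, Pim3, Il17b, Rps15, Rpl12, C1qtnf12, Hilpda and Adm. Depp1 is a target of FoxO factors, and Ier3 is an early stress gene. Both were lower in Col2a1-high barcodes as well, with log2 ratios of -1.85 and -2.51, and Rps15 and Rpl12 were each at -1.03 in B cell barcodes. The 10 highest were 4 hemoglobin genes led by Hba-a2 (9.57 and 69.0 CPM), mt-Atp8, Gm12976, Gm14636, Hmox1 (103 and 291 CPM), Tnn (37.8 and 112 CPM) and Igkc. With a minimum of 2% Col10a1 the log2 ratio of Igkc turned to -0.57. Without members that carried blood cell markers, the log2 ratio of Hba-a2 was 0.88 in place of 2.35 and that of Hba-a1 0.78 in place of 2.31. That of Hbb-bs was 0.52 in place of 2.12 and that of Hbb-bt 0.52 in place of 2.06. These hemoglobin genes are themselves among those markers. The filter thus removed members by the same values, and the drop carries no test. B cell barcodes had mt-Atp8 at 175 and 845 CPM and Hba-a2 at 16.3 and 81.4 CPM, so both were higher in cells of another type in the GC library, whereas hemoglobin genes were lower in its Col2a1-high barcodes (Hba-a2 42.6 and 28.6 CPM). Hmox1, the heme oxygenase, was at 80.2 and 144 CPM in Col2a1-high barcodes, and Tnn (tenascin-W) at 146 and 351 CPM.

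Some marker lists of other cell types differed between the libraries. Of the genes compared in each list, 6 of 6 endothelial, 5 of 6 osteoclast, 6 of 6 macrophage, 8 of 8 neutrophil, 5 of 5 erythroid and 4 of 4 T and NK cell markers were higher in GC, against 1 of 4 B cell and 1 of 3 muscle markers. Over all genes 57.8% were higher in GC, with a median of 0.04. The medians were 0.62 for endothelial, 0.35 for osteoclast, 0.16 for macrophage, 0.73 for neutrophil and 2.12 for erythroid markers. That of T and NK cell markers, 0.06, lay near the value for all genes. At 5000 UMIs or more these medians were 0.51, 0.15, 0.05, 0.36, 1.86 and 0.03 in the same order, beside 0.02 for all genes. The neutrophil markers at least 2-fold higher went from 3 to 0. Summed over each list, endothelial markers were at 7.67 CPM in control and 30.7 CPM in GC members (led by Pecam1 at 3.61 and 9.13 CPM), osteoclast markers at 107 and 192 CPM (Ctsk 66.3 and 130.1 CPM; Calcr at 0 in control), and macrophage markers at 43.8 and 70.5 CPM (Lyz2 29.7 and 49.9 CPM). Neutrophil markers were at 249 and 442 CPM (led by S100a8 at 105 CPM in control and S100a9 at 172 CPM in GC), erythroid markers at 107 and 549.7 CPM (Hbb-bs 74.95 and 341 CPM), and T and NK cell markers at 13.8 and 16.2 CPM (Ccl5 10.5 and 10.8 CPM). B cell markers were at 108 and 127 CPM, of which Ebf1, made also by mesenchymal cells, gave 79.0 and 108 CPM, and muscle markers at 11.8 and 7.83 CPM (Acta1 7.65 and 3.36 CPM; Myh4 at 0 in both). For a filter, the neutrophil, macrophage, B cell, T and NK cell, erythroid and osteoclast lists were pooled as blood cell markers. The pool holds genes also made outside blood cells, such as Ebf1 and Mmp9. It made up at least 1% of the UMIs of 25 control members (1.54%) and 158 GC members (5.87%). The 5% of members with most Hba-a1 UMIs held 69.7% and 85.1% of the Hba-a1 UMIs. The part of these RNAs in the differences between the libraries was not tested; without the blood-marked members 48 genes were at least 2-fold higher and 16 at least 2-fold lower in GC.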

How the data were processed

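Single-cell libraries were made with 10x Genomics kits from enzyme-digested callus or trabecular bone. The authors deposited raw UMI counts per gene and barcode. The submitters' processing notes name Cell Ranger 5.0.1, Seurat 3.2.0 and mm10, while a deposited matrix header names Cell Ranger 4.0.0. The deposited control callus matrix lists 6794880 barcodes and the GC callus matrix 7762, none under 500 UMIs.

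Counts (95852254 and 64388215 UMIs in all; 40132632 and 33075331 in members) were summed over members of each callus library and scaled to 1000000 (CPM). Ratios are log2 of CPM plus 5, for genes with at least 50 UMIs in the compared sums. Shares have exact (Clopper-Pearson) and CPM ratios exact conditional 95% intervals, for counting error only; a count of 0 was given the limit of 3 counts. No doublet caller was run; alternatives left out members with blood markers or most UMIs. With 1 library a condition no test was made.

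Members and gene lists were chosen with earlier results of these data known. Named were the 6 markers, up to 4 most abundant and 3 most different genes of each list, and the 10 highest and lowest genes of each contrast; genes named by band, by split or beside a list were chosen after their values were seen. NumPy 2.4.6, SciPy 1.17.1 and pandas 2.3.3 were used under Python 3.11.15, and the ratio code was tested on simulated data.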

Additional observations from a re-analysis of the deposited data

Results flagged for a closer look

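Between GC and control callus, 11 of the genes in the lists or named in the text differed in opposite directions in hypertrophic and in Col2a1-high barcodes, each by at least 0.5 log2 units. Ihh was at -0.92 in hypertrophic barcodes and 0.68 in Col2a1-high barcodes. Igfbp4, an IGF-binding protein, was at 0.57 in hypertrophic barcodes (19.1 and 30.7 CPM) and -0.66 in Col2a1-high barcodes (40.5 and 23.9 CPM). The remaining 9 were blood cell genes. The hemoglobin genes were at 2.31 and -0.66 (Hba-a1), 2.35 and -0.50 (Hba-a2), 2.12 and -1.49 (Hbb-bs) and 2.06 and -1.69 (Hbb-bt) in hypertrophic and Col2a1-high barcodes. The neutrophil granule genes were at 1.87 and -1.66 (Camp), 1.80 and -1.77 (Ngp), 0.69 and -0.53 (Ltf) and 0.77 and -1.13 (S100a9), and the immunoglobulin light chain Igkc at 1.40 and -0.81. The Igkc value of hypertrophic barcodes turned to -0.57 with a minimum of 2% Col10a1. With 1 library a condition, these differences between the groups were not tested. Groups of 1 library could not be examined for outlying samples.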

How the results depend on the processing

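No paired analysis was possible because each condition had 1 library. The share of members, 22.8% in control and 36.8% in GC, was higher in GC at every setting: 23.5% and 38.2% at 1000 UMIs or more, 31.4% and 44.4% at 2000, 42.0% and 53.0% at 5000 (chosen after seeing the data), 23.9% and 38.1% at 5% mitochondrial UMIs, 29.0% and 40.9% at 0.25% Col10a1, 19.1% and 31.1% at 1%, 14.4% and 19.3% at 2%, and 22.4% and 34.6% without blood-marked members. Genes at least 2-fold higher and lower in GC numbered 207 and 53 with a pseudocount of 1, 20 and 9 with 20, 251 and 40 with the mean over barcodes, and 268 and 55 after thinning to 1000 UMIs, against 51 and 17; scaled without abundant genes 26 were lower, and at 20000 UMIs or more (also chosen after seeing the data) 36 were higher and 22 lower. Against Col2a1-high barcodes 193 and 241 genes were higher and lower with a pseudocount of 1, 39 and 53 with 20, 28 were higher at 2% Col10a1, and 72 were lower with the mean over barcodes and 50 after thinning, against 90 and 119. With the mean over barcodes 1 listed gene was higher and 9 lower in the highest Col10a1 band; at 5000 UMIs or more 15 were lower, against 14. Epyc turned to 0.15 with the mean over barcodes and Igkc to -0.57 at 2% Col10a1, the only reversals among 1083 values of 57 named genes. Another 270 moved by at least 0.1 log2 units. Among these were the hemoglobin genes without blood-marked members, a filter that itself uses those genes. Ihh was seen in 70.2% and 39.3% of members without thinning and 30.5% and 19.5% at 2000 UMIs, Ibsp in 98.4% and 99.4% and in 91.7% and 96.2%. The cause was not tested. Limiting the control callus by UMI rank changed nothing, since it has fewer barcodes of 500 UMIs or more (7571) than the GC matrix lists. Depth limits what shallow members show: 3 Col10a1 UMIs sufficed for the smallest.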

Other observations

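The first principal component of the members held 5.78% of the variance in control and 6.66% in GC. Across members its scores followed depth: Pearson's r with log10 UMIs was 0.895 over 1623 control members and -0.898 over 2690 GC members (the sign of a component is arbitrary), all cells of 1 library each, so these are descriptions. At the shallow end lay Mmp13, Spp1, Srgn, S100a8 and S100a9 in control, and Col1a1, Col9a1, Col12a1, Serpinh1 and Col1a2 in GC, with mt-Co3 in both. At the deep end lay Ppia, Ssr4 and Hapln1 in control and the ribosomal protein genes Rps2, Rpl36 and Rpl26 in GC.

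Secreted Wnt inhibitors were uneven in members. Frzb was at 1055 CPM in control and 729 CPM in GC members, against 479.6 and 470.2 CPM in Col2a1-high barcodes, and Sfrp5 at 47.5 and 24.5 CPM against 208 and 93.5 CPM. The lysyl oxidase Lox, which crosslinks collagen, was at 875 and 1249 CPM in members and 403 and 751 CPM in Col2a1-high barcodes.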
